A study of Mus musculus with 12 samples.

Results

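RIKEN clone genes are mouse genes known in a gene table only by the name of the full-length cDNA clone from which they were first described, a string of digits and letters that ends in Rik. They were taken here from a table of FPKM values (fragments mapped to a transcript, divided by its length and by the depth of the library) of the hippocampal CA1 region, after exact repeat rows had been dropped and rows of the same symbol summed. A member was a symbol ending in Rik with a mean of at least 1 FPKM over all 12 libraries and no exact 0 in any of them. The table held 10245 symbols. Among them 1265 ended in Rik, of which 332 were at 0 in every library, 789 lay above 0 but below a mean of 1 FPKM and 144 reached it. Of these 144, 6 had an exact 0 in at least 1 library and were set aside, which left 138 members.

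The libraries came from 6 Tip60 cKO and 6 Control mice, which the labels give as male and C57BL/6N, whereas the study's methods speak of treated animals of both sexes without naming those used for RNA-Seq. Tip60 (Kat5) encodes a lysine acetyltransferase of histones and other proteins. Tip60 cKO mice had the genotype CaMKCreERT2 Tip60 f/f, in which a tamoxifen-inducible Cre recombinase is driven in excitatory neurons of the forebrain but not in glia or neuronal progenitors. Control mice were Tip60 f/f littermates without Cre. Both groups had received tamoxifen at 2 months of age, and the dorsal CA1 of each mouse, left and right together, was taken 10 days after the last injection. Only Tip60 cKO mice carried Cre, so the recombinase and the loss of Tip60 cannot be told apart. Tip60 itself was not analysed here.

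Clone names carry no information on function. Large-scale sequencing of mouse cDNA gave them to any transcript that resembled no known gene at the time, so the class mixes proteins that have since been named, small proteins still without a role, and long non-coding RNAs, which are transcripts without a protein product that often start beside a coding gene or run antisense to it. In the brain many of the non-coding RNAs are transcribed from promoters shared with a neighbour, so gene type and position are given with the values below.

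Of the 138 members 135 were matched to 1 gene in the RefSeq gene table. By its entries 76 have since been given another symbol and 59 are still listed under the clone name. RefSeq classes 95 members as protein-coding, 35 as non-coding RNA and 5 as pseudogene or other. The unmatched names were 1110020G09Rik, 1700058G18Rik and 2900097C17Rik, of which the last 2 are synonyms of more than 1 gene. No current symbol of a renamed member had a row of its own in the table, so no member was split between an old and a new name. Members are called below by the current symbol where there is one, with the clone name at first mention.

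The promoters of members at both ends of the range of change are shown as RefSeq gives them for the GRCm38.p6 build. Those of higher members that hold a full cAMP response element or an E2F site are added. Members that hold only the other motifs counted below are not shown, and choosing promoters by motif was not planned. Each window runs over the start of the transcript, with most of it upstream. For the member with the largest rise, the non-coding RNA 4930528D03Rik, the window is chr13:59733400-59733699 on the plus strand. The largest fall was that of Smim18, which has no entry in the promoter table, so the window of Plppr1, the next largest, is given (chr4:49059212-49059511, plus strand). 1810044D09Rik (chr6:91440737-91441036, plus strand) and A130010J15Rik (chr1:193173327-193173626, plus strand, the second of its 2 entries) are the members that hold a full cAMP response element, and 2810006K23Rik (chr5:124327839-124328138, plus strand) is the one member that was higher in Tip60 cKO mice and holds an E2F site. A130010J15Rik is outside the naming rule and was chosen after its values were seen. Capitals mark the cAMP response element TGACGTCA or the E2F site GCGGGAAA, and the first 2 sequences hold none of the motifs that were looked up.
4930528D03Rik: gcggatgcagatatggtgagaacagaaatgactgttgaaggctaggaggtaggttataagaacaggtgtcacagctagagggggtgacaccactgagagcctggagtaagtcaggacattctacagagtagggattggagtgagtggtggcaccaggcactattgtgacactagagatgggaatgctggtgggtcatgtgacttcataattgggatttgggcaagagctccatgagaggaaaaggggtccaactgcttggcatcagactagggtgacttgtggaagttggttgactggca
Plppr1: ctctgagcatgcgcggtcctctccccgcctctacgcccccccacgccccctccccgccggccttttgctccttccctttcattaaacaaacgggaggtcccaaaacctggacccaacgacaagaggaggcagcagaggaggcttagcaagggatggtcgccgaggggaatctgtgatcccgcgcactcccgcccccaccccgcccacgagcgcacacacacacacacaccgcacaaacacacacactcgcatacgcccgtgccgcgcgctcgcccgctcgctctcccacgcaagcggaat
1810044D09Rik: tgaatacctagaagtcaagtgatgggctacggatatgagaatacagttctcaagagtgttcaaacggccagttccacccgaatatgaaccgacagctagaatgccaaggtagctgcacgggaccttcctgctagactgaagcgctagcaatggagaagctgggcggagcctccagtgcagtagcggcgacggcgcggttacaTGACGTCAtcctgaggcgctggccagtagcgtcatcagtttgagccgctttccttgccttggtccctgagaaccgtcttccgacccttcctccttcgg
A130010J15Rik: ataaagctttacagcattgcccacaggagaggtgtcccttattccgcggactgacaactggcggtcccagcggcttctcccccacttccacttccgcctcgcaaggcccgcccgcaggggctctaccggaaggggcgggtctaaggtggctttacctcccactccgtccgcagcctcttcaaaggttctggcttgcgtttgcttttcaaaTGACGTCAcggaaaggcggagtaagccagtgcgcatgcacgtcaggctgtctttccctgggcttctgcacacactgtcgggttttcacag
2810006K23Rik: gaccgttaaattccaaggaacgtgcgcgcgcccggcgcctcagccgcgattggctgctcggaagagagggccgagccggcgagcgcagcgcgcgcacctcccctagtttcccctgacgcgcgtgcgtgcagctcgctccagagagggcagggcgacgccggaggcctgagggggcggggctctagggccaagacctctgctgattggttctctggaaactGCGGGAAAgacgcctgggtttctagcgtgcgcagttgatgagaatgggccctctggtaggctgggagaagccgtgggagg

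The motifs were read on both strands of 125 promoters of 112 members. TGACGTCA, the site of the activity-regulated factor CREB, was in 2 of the 32 promoters of members that were higher in Tip60 cKO mice, in 0 of 11 of lower members and in 0 of 82 of members without a call, against 1.79% of all 32851 promoters in the table. Its short form TGACG, which the full site contains, was in 31.2% of promoters of higher members, 0 of 11 of lower members and 29.3% of those without a call, against 20.8% of all promoters. An E2F site (TTTCCCGC or TTTGGCGC) was in 1 promoter of higher members, 0 of lower members and 2 of members without a call, against 1.56% of all. The E-box CACGTG was in 2 of 32, 2 of 11 and 9 of 82 promoters of higher, lower and uncalled members, against 7.15% of all promoters. The TATA box TATAAA was in 4% of member promoters and 13.6% of all promoters, and the median GC content was 59% against 52.7%. A match is a description of letters in a window and says nothing about binding, and no binding was measured here.

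The members spanned a wide range of levels. Mean FPKM over the 12 libraries ran over 1.05 to 273.7, with a median of 6.93 and quartiles of 2.84 and 14.9. By level 25 members lay between 1 and 2 FPKM, 63 between 2 and 10 and 50 at 10 or more. Libraries of the same genotype were close, with a median coefficient of variation of 7.68% within Tip60 cKO and 7.77% within Control. The members just inside the limit were Ecrg4 (1500015O10Rik, 1.05 FPKM), 1700096K18Rik (1.10 FPKM) and 4930528D03Rik (1.11 FPKM), and the genes just outside it were 8030442B05Rik (0.989 FPKM), 5730559C18Rik (0.953 FPKM) and 4933405D12Rik (0.943 FPKM). The mean over all libraries chose the members, so a low member could pass through the genotype in which it was high. Both group means reached 1 FPKM for 132 members, only the Tip60 cKO mean did for 5 and only the Control mean for 1.

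The question was which of these little-described genes differed in level between Tip60 cKO and Control CA1. Each gene was tested with limma on log2(FPKM + 1), fitted over the 2412 genes that averaged 0.5 FPKM or more, and called when the Benjamini-Hochberg adjusted p was below 0.05 and FPKM + 1 differed by more than 1.2-fold. Of the 138 members 31 were higher in Tip60 cKO mice, or 22.5%, where 19.8% of all tested genes were, and 13 were lower, or 9.42%, where 6.51% of all tested genes were. Both shares are near the background. The median log2 change was 0.09 over the members and 0.09 over all tested genes. The single changes ran over -0.71 to 0.94.

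Of the 94 members without a call 34 had an adjusted p below 0.05 with a change within 1.2-fold, and 60 had a larger p. An adjusted p below 0.05 in either direction was reached by 78 of the 138 members, against 54.7% of all tested genes. In 36 members all Tip60 cKO values exceeded all Control values, against 25.1% of all tested genes, and in 15 they were all below, against 8.33%. Of the called members 28 of the 31 higher and all 13 lower ones had groups that did not overlap. No member passed a 2-fold change of FPKM + 1 in limma at an adjusted p below 0.05, where 0.954% of all tested genes did. An unadjusted limma p below 0.05 was reached by 85 of the 138 members, beside 1435 of all 2412 tested genes. The values are from whole tissue, in which fewer cells of a type and less RNA per cell cannot be told apart.

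**Figure D1:**
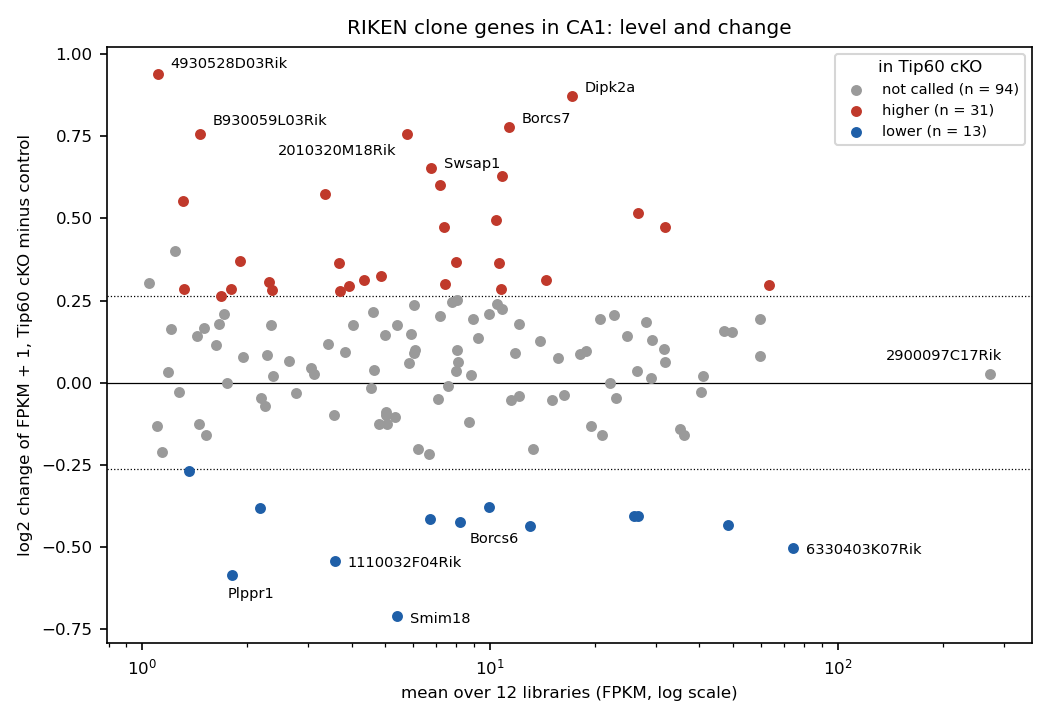
Mean FPKM over 12 libraries (log axis) against the log2 change of FPKM + 1, Tip60 cKO minus Control, for each of the 138 members, with dotted lines at a 1.2-fold change. The 31 members called higher and 13 called lower run over means of 1.11 FPKM (4930528D03Rik) to 74.5 FPKM (6330403K07Rik), and the most abundant member, 2900097C17Rik, lies near 0.

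The scale of the deposited values bears on these counts. When libraries were rescaled so that the median gene had a ratio of 1 (median-ratio scaling), 16 members were higher and 19 lower, and the share of higher genes among all called genes was 50.3% in place of 75.2%. Upper-quartile scaling gave 19 higher and 16 lower members and a share of 59.8%. Among the members themselves the share of higher calls was 70.5% as deposited, 45.7% under median-ratio and 54.3% under upper-quartile scaling. The 13 lower calls held under both scalings, as did 16 of the 31 higher ones. Both scalings moved log2 changes downward, to member medians of -0.0055 under median-ratio and 0.0302 under upper-quartile scaling from 0.0945 as deposited. They therefore put the higher calls to a test but not the lower ones.

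Estimated depth was 30.5 to 36.9 M reads per library and did not differ detectably between Tip60 cKO (33.0 ± 1.65 M) and Control (34.7 ± 2.46 M; SD, n = 6 each, two-sided exact permutation p = 0.182). Among marker lists, 3 had sums that did not overlap between genotypes: the interneuron list at 754 to 819 FPKM in Tip60 cKO and 376 to 439 FPKM in Control (3 of 7 markers in the table), the CA1 pyramidal list at 48.1 to 62.5 FPKM and 25.8 to 31.8 FPKM (1 of 5, Pou3f1), and the meninges and fibroblast list at 22.5 to 30.4 FPKM and 13.4 to 21.3 FPKM (3 of 5). Microglial markers summed to 118 to 154 FPKM in Tip60 cKO and 107 to 125 FPKM in Control (6 of 9), oligodendrocyte markers to 72.3 to 83.5 FPKM and 59.9 to 76.2 FPKM (2 of 7). No listed marker in the table was at 0 in every library, and none of the 7 astrocyte markers was analysed here. Their part in the changes of the members was not tested. The label CA1 could be checked with Pou3f1 alone, which was present in every library.

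The member with the largest rise was 4930528D03Rik, a non-coding RNA of unknown function. It had 1.53, 1.84 and 1.91 FPKM (lowest, median, highest) in Tip60 cKO and 0.282, 0.427 and 0.672 FPKM in Control. Its groups were far apart, yet its level in Control was that of few reads. The ratio of group means was 3.94 and the log2 change 0.94 ± 0.07 (SE, limma adjusted p = 2.89e-08), the smaller figure being that of FPKM + 1, a scale that understates the change of low genes. It is also a member that reached a mean of 1 FPKM only in Tip60 cKO, and the rule could take it in only because it was high there.

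Some other non-coding RNAs that were called higher also had low levels. B930059L03Rik and 1810044D09Rik likewise reached 1 FPKM on average only in Tip60 cKO, so they too became members through the genotype in which they were high, and their differences are no support for a direction of the class. B930059L03Rik had 1.81, 2.11 and 2.43 FPKM in Tip60 cKO against 0.692, 0.824 and 1.04 FPKM in Control, a ratio of 2.52 (log2 change 0.76 ± 0.06, limma adjusted p = 5.12e-08). 1810044D09Rik had 1.31, 1.79 and 2.11 FPKM in Tip60 cKO against 0.287, 0.939 and 1.24 FPKM in Control (ratio 1.96, log2 change 0.55 ± 0.12, limma adjusted p = 0.00157). The groups of 1810044D09Rik nearly met, and its spread within Control was wide. The antisense RNA Epb41l4aos (2410004N09Rik) had 10.9, 12.5 and 13.98 FPKM in Tip60 cKO against 5.89, 8.60 and 10.5 FPKM in Control (ratio 1.44, log2 change 0.49 ± 0.11, limma adjusted p = 0.00218), and its groups were also close at their edges.

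2010320M18Rik is a non-coding RNA that starts within 1 kb of Pik3r2, a regulatory subunit of phosphoinositide 3-kinase, on the other strand. It had 6.89, 7.53 and 8.07 FPKM in Tip60 cKO and 3.14, 4.13 and 4.58 FPKM in Control. Every Tip60 cKO library was well above every Control library, with a ratio of 1.85 and a log2 change of 0.76 ± 0.07 (limma adjusted p = 3.23e-07). Pik3r2 had 43.9 ± 3.03 FPKM in Tip60 cKO and 41.3 ± 2.12 FPKM in Control (SD, n = 6 each), a log2 change of 0.09 with a limma adjusted p of 0.139. The difference between the changes of the pair was not tested.

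**Figure D2:**
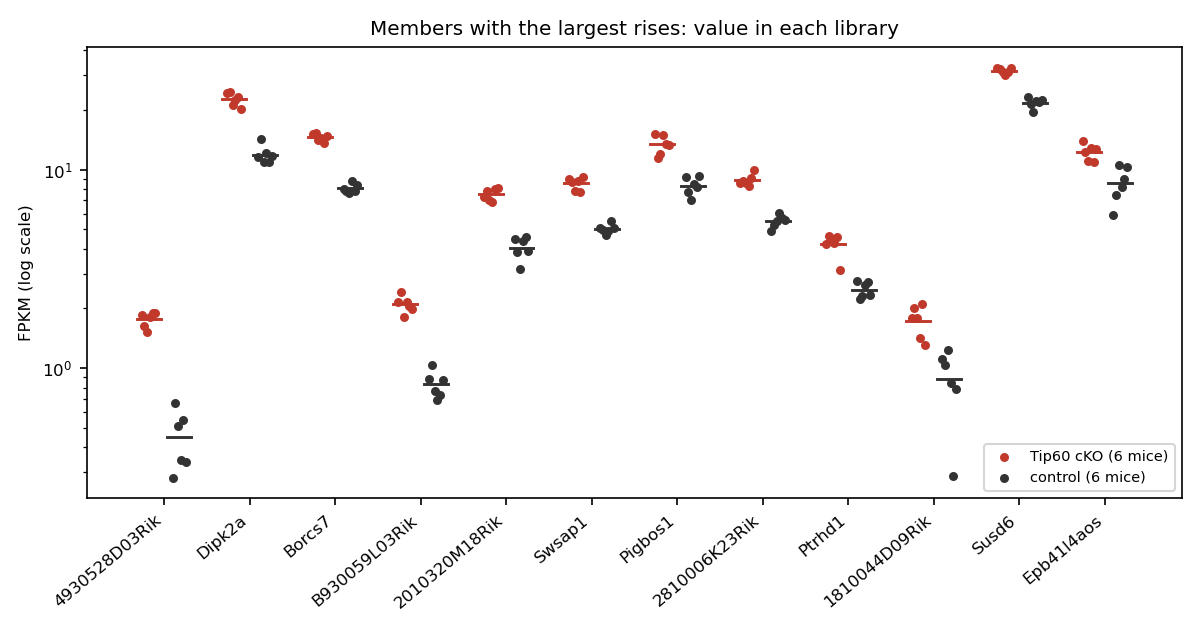
FPKM (log axis) of the 12 members with the largest rises in each of 6 Tip60 cKO libraries (red, left) and 6 Control libraries (black, right), with a bar at each group mean. No group of Tip60 cKO libraries overlaps its Control group, and the narrowest gap is that of 1810044D09Rik, with 1.31 FPKM as the lowest Tip60 cKO and 1.24 FPKM as the highest Control value.

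As a class 12 of the 35 non-coding members were higher in Tip60 cKO and 1 was lower, with a median log2 change of 0.15, beside 19.8% and 6.51% of all tested genes. Under median-ratio scaling the counts were 7 and 3 of 35, beside 11.7% and 11.6% of all tested genes, and under upper-quartile scaling 7 and 2 of 35, beside 14% and 9.41%. The higher calls include 4930528D03Rik, B930059L03Rik and 1810044D09Rik under each scaling. They became members through Tip60 cKO, so these counts are no support for a direction of the class. Among the 27 non-coding members still under a clone name 10 were higher and 1 lower. The lower one was D930048N14Rik (log2 change -0.27 ± 0.05, limma adjusted p = 0.000382), which is named outside the naming rule after its values were seen. Its call was lost at -0.23 without Tip60 cKO replicate 3 and at -0.26 without Control replicate 2, which left 0 lower non-coding members in either fit. The 6 non-coding members whose current symbol ends in os, for opposite strand, had log2 changes of 0.10 to 0.49, where 1671 of 2412 tested genes were above 0. Under median-ratio scaling they ran from -0.0033 (Ctrcos, 1810035I16Rik) to 0.38 (Epb41l4aos). Atad3aos (2610204G22Rik) reached a mean of 1 FPKM only in Tip60 cKO. As deposited 2 of the 6 were called, Epb41l4aos and Slc36a1os (4921508A21Rik, 0.36 ± 0.05, limma adjusted p = 2.44e-05). No test compared non-coding with coding members.

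Of the 95 protein-coding members 18 were higher and 12 lower in Tip60 cKO, beside 19.8% and 6.51% of all tested genes. Their median log2 change was 0.09. Median-ratio scaling gave 8 higher and 15 lower, beside 11.7% and 11.6% of all tested genes. Upper-quartile scaling gave 11 and 13, beside 14% and 9.41%. The more frequent direction among coding members depended on the scaling, and the shares over all tested genes moved with it as well. Of the 29 coding members that still have only a clone name 6 were higher and 6 lower as deposited, 1 and 6 under median-ratio scaling, and 2 and 6 under upper-quartile scaling. The pseudogene class held 1 called member of 5, 3000002C10Rik (log2 change 0.47 ± 0.05, limma adjusted p = 7.03e-07), and the unmatched class none of 3.

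**Figure D3:**
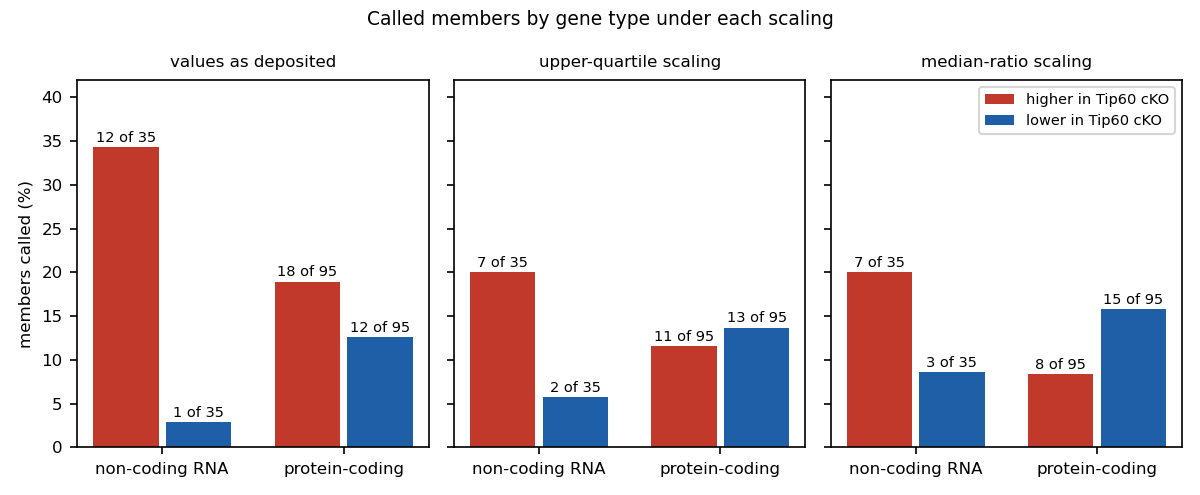
Percent of non-coding (n = 35) and protein-coding (n = 95) members called higher (red) or lower (blue) in Tip60 cKO with values as deposited, after upper-quartile scaling and after median-ratio scaling. In all 3 panels the non-coding higher calls include 4930528D03Rik, B930059L03Rik and 1810044D09Rik. These became members through the genotype in which they were high, so the bars are no support for a direction of the class. Coding members have 18 higher and 12 lower calls as deposited and 8 and 15 after median-ratio scaling.

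Members with a current name were grouped by what the protein is known to do. Each group with a known role is small, and its counts stand beside 19.8% higher and 6.51% lower of all tested genes. In the membrane and secretory pathway group 4 of 14 members were higher and 3 lower. Differences between groups were not tested. Dipk2a (1190002N15Rik), a divergent protein kinase of the Golgi, had 20.1, 22.7 and 24.5 FPKM in Tip60 cKO and 10.9, 11.6 and 14.2 FPKM in Control. The groups were well separated, and the ratio was 1.90 with a log2 change of 0.87 ± 0.06 (limma adjusted p = 2.89e-08). Susd6 (4933426M11Rik), a membrane protein with a sushi domain, had 29.8, 31.7 and 32.7 FPKM in Tip60 cKO and 19.4, 21.9 and 23.3 FPKM in Control (log2 change 0.52 ± 0.04, limma adjusted p = 9.13e-08).

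Rab5if (1110008F13Rik), a small membrane protein of the endoplasmic reticulum, rose less, with 14.3, 16.1 and 17.95 FPKM in Tip60 cKO and 11.7, 13.02 and 14.1 FPKM in Control (log2 change 0.31 ± 0.06, limma adjusted p = 0.000268). Tmem258 (1810006K21Rik), a subunit of the oligosaccharyltransferase that attaches sugar chains to nascent proteins, had 64.2, 70.1 and 75.9 FPKM in Tip60 cKO and 52.4, 56.1 and 61.1 FPKM in Control (log2 change 0.30 ± 0.05, limma adjusted p = 8.13e-05). It was among the 5 most abundant members. Both genes lost their calls under median-ratio scaling, at 0.20 for Rab5if and 0.18 for Tmem258, and under upper-quartile scaling, at 0.24 and 0.22.

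The falls in the same group were larger than most. Smim18 (2700090O03Rik), a small integral membrane protein, had 3.43, 3.81 and 4.36 FPKM in Tip60 cKO and 6.07, 6.93 and 7.71 FPKM in Control. This was the largest fall of any member, with a ratio of 0.554 and a log2 change of -0.71 ± 0.06 (limma adjusted p = 1.58e-07). Plppr1 (E130309F12Rik), a phospholipid phosphatase-related membrane protein of growing neurites, had 1.09, 1.22 and 1.44 FPKM in Tip60 cKO and 2.17, 2.31 and 2.82 FPKM in Control, a ratio of 0.525 (log2 change -0.59 ± 0.06, limma adjusted p = 6.43e-07). Its groups did not come near each other. Pianp (C530028O21Rik), a neural membrane ligand of the receptor PILR-alpha, had 33.3, 43.2 and 47.2 FPKM in Tip60 cKO and 48.6, 57.0 and 61.8 FPKM in Control (log2 change -0.44 ± 0.09, limma adjusted p = 0.00125), and its groups nearly touched.

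Uncalled genes of the group included Chp1 (1500003O03Rik), a calcium-binding cofactor of sodium-proton exchangers (log2 change 0.16 ± 0.04, limma adjusted p = 0.00181), and the kainate receptor subunit Grik2 under the name C130030K03Rik (0.12 ± 0.05, limma adjusted p = 0.0498). Both changes were within 1.2-fold.

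Among 7 members of the cytoskeleton, cilia and trafficking group 2 were higher and 1 lower. Borcs7 and Borcs6 are subunits of BORC, a complex that couples lysosomes to kinesin and so moves them along microtubules. Borcs7 (2010012O05Rik) had 13.7, 14.7 and 15.3 FPKM in Tip60 cKO and 7.64, 7.93 and 8.78 FPKM in Control, a ratio of 1.804. Borcs6 (2310047M10Rik) had 5.88, 7.01 and 7.67 FPKM in Tip60 cKO and 8.89, 9.44 and 10.2 FPKM in Control, a ratio of 0.72. The pair thus changed in opposite directions, Borcs7 by a log2 change of 0.78 ± 0.04 (limma adjusted p = 9.51e-10, the smallest of any member) and Borcs6 by -0.43 ± 0.06 (limma adjusted p = 2.88e-05), and both calls held under both scalings. The scalings move changes downward, so they put the call of Borcs7 to a test but not that of Borcs6. Whether other BORC subunits moved was not analysed here.

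Arhgef18 (A430078G23Rik), a guanine nucleotide exchange factor, had 3.83, 4.11 and 4.67 FPKM in Tip60 cKO and 3.06, 3.21 and 3.48 FPKM in Control (log2 change 0.28 ± 0.05, limma adjusted p = 0.000142). Its change was close to the 1.2-fold limit and lost its call at 0.25 without Tip60 cKO replicate 2, at 0.18 under median-ratio scaling and at 0.22 under upper-quartile scaling. Cep19 (1500031L02Rik), a centrosomal protein of cilia, was not called at -0.16 ± 0.04 (limma adjusted p = 0.00336), nor was Inka2 (6530418L21Rik), an inhibitor of the kinase PAK4, at 0.19 ± 0.04 (limma adjusted p = 0.00201).

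Of 8 mitochondrial members 2 were higher and 1 lower. Tmem242 and Fmc1 both take part in the assembly of the mitochondrial ATP synthase. Tmem242 (5730437N04Rik) had 32.6, 34.9 and 49.6 FPKM in Tip60 cKO and 23.5, 26.7 and 28.7 FPKM in Control (log2 change 0.47 ± 0.08, limma adjusted p = 0.000299). Fmc1 (1110001J03Rik) had 20.8, 22.7 and 25.6 FPKM in Tip60 cKO and 27.7, 30.2 and 33.9 FPKM in Control (log2 change -0.41 ± 0.06, limma adjusted p = 3.55e-05). This pair of assembly factors also changed in opposite directions, without overlap of the groups and under both scalings. The scalings move changes downward, so they put the call of Tmem242 to a test but not that of Fmc1.

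Pigbos1 (2310009A05Rik), a microprotein of the outer mitochondrial membrane, had 11.5, 13.4 and 15.2 FPKM in Tip60 cKO and 7.04, 8.29 and 9.30 FPKM in Control (ratio 1.61, log2 change 0.63 ± 0.07, limma adjusted p = 6.08e-06). Its exons overlap Pigb on the opposite strand in GENCODE M21, and reads of the pair cannot be told apart, because no source used here says whether the libraries kept strand. The other mitochondrial members had no call, among them Micos13 (2410015M20Rik), a subunit of the complex that shapes cristae, at -0.03 ± 0.04 (limma adjusted p = 0.538), and Timm29 (1810026J23Rik), a subunit of the carrier translocase, at 0.19 ± 0.05 (limma adjusted p = 0.00539).

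In the nucleus, RNA and chromatin group 2 of 15 members were higher and none was lower in limma. An unadjusted p below 0.05 was reached by 7 of 15, beside 1435 of all 2412 tested genes. Swsap1 (2310047B19Rik), a protein of homologous recombination, had 7.74, 8.72 and 9.17 FPKM in Tip60 cKO and 4.71, 5.004 and 5.54 FPKM in Control (ratio 1.69, log2 change 0.66 ± 0.05, limma adjusted p = 3.92e-08). Smg8 (1200011M11Rik), a regulator of the kinase that starts nonsense-mediated decay, had 4.81, 5.45 and 6.14 FPKM in Tip60 cKO and 3.76, 4.17 and 4.44 FPKM in Control (log2 change 0.33 ± 0.06, limma adjusted p = 0.000152). Swsap1 kept its call under both scalings, whereas Smg8 lost it under median-ratio scaling at 0.23. The splicing factor Sf3b6 (0610009D07Rik), the Polycomb partner Epop (E130012A19Rik) and the nucleolar demethylase Riox1 (2410016O06Rik) each had a log2 change of 0.09 and were not called.

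Of 10 members with roles in ubiquitination, proteolysis and enzymes 2 were higher and 1 lower. Ptrhd1 (2410017P09Rik), with a peptidyl-tRNA hydrolase domain, had 3.12, 4.37 and 4.63 FPKM in Tip60 cKO and 2.23, 2.48 and 2.74 FPKM in Control (ratio 1.69, log2 change 0.58 ± 0.07, limma adjusted p = 1.07e-05). Bmt2 (B630005N14Rik), a sensor of S-adenosylmethionine in the mTORC1 pathway, had 8.44, 9.02 and 10.3 FPKM in Tip60 cKO and 6.21, 6.79 and 7.43 FPKM in Control (log2 change 0.37 ± 0.05, limma adjusted p = 2.88e-05), and it lost its call under median-ratio scaling at 0.26. Tstd3 (2610029I01Rik), with a sulfurtransferase domain, had 8.17, 8.50 and 8.85 FPKM in Tip60 cKO and 10.3, 11.6 and 11.997 FPKM in Control (ratio 0.748, log2 change -0.38 ± 0.04, limma adjusted p = 1.27e-06). The fructose bisphosphatase Tigar (9630033F20Rik), which is induced by p53, was not called at 0.25 ± 0.05 (limma adjusted p = 0.000897), nor was Gid4 (4933439F18Rik), a substrate receptor of the CTLH ubiquitin ligase, at -0.20 ± 0.03 (limma adjusted p = 7.24e-05).

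For 84 members no role was assigned. Of these 19 (22.6%) were higher and 7 (8.33%) lower, beside 19.8% and 6.51% of all tested genes. The falls in this group were mostly of coding genes at appreciable levels. 6330403K07Rik had 55.7, 61.1 and 69.3 FPKM in Tip60 cKO and 79.3, 88.9 and 91.5 FPKM in Control, so that the loss of signal in FPKM was the largest among the named falls. Its ratio was 0.702 and its log2 change -0.50 ± 0.05 (limma adjusted p = 4.76e-07). 5730409E04Rik was tightly grouped, with 21.7, 22.1 and 22.7 FPKM in Tip60 cKO and 26.9, 30.4 and 31.1 FPKM in Control (log2 change -0.41 ± 0.04, limma adjusted p = 2.97e-07).

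2610301B20Rik had 10.2, 10.6 and 11.8 FPKM in Tip60 cKO and 12.8, 15.5 and 16.0 FPKM in Control (log2 change -0.44 ± 0.05, limma adjusted p = 5.37e-06). 2610002M06Rik had 5.06, 5.61 and 6.09 FPKM in Tip60 cKO and 6.88, 7.94 and 8.63 FPKM in Control (log2 change -0.42 ± 0.05, limma adjusted p = 8.78e-06). Neither pair of groups overlapped. Lower-level coding genes also fell, 1110032F04Rik with 2.45, 2.50 and 3.49 FPKM in Tip60 cKO and 3.83, 4.42 and 4.89 FPKM in Control (log2 change -0.54 ± 0.07, limma adjusted p = 1.27e-05). The highest Tip60 cKO and the lowest Control value of 1700020D05Rik were almost equal, with 1.44, 1.8 and 1.95 FPKM in Tip60 cKO and 1.96, 2.60 and 3.01 FPKM in Control (log2 change -0.38 ± 0.07, limma adjusted p = 0.000459).

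**Figure D4:**
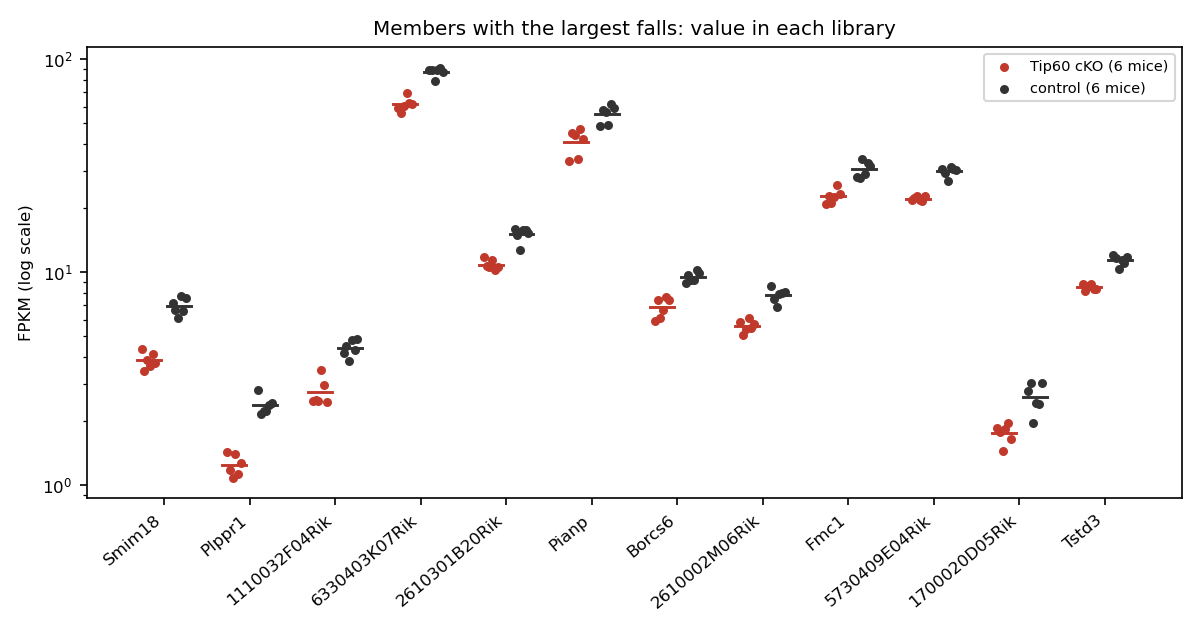
FPKM (log axis) of the 12 members with the largest falls in each of 6 Tip60 cKO libraries (red, left) and 6 Control libraries (black, right), with a bar at each group mean. Every Tip60 cKO library lies below every Control library in all 12, from 6330403K07Rik with a Control median of 88.9 FPKM down to Plppr1 with 2.31 FPKM.

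The coding gene 2810006K23Rik, whose promoter is shown above, had 8.30, 8.68 and 9.99 FPKM in Tip60 cKO and 4.92, 5.57 and 6.02 FPKM in Control. Its groups were clearly apart, with a ratio of 1.61 and a log2 change of 0.60 ± 0.05 (limma adjusted p = 1.31e-07). A130010J15Rik, the other coding gene shown there, was barely past the fold limit at 0.26 ± 0.05 (limma adjusted p = 0.00024). It lost its call under median-ratio scaling at 0.19, under upper-quartile scaling at 0.22, and in 6 of the 12 fits that left out 1 library, which gave 0.24 to 0.28. These 6 were without Tip60 cKO replicate 1 (0.2628), 2 (0.2557), 3 (0.262) or 6 (0.2498) and without Control replicate 4 (0.2413) or 5 (0.2502).

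Of the 5 members of highest mean level Tmem258 and 6330403K07Rik were called, as described above, and the other 3 were not. 2900097C17Rik, whose name RefSeq gives to both Norad, a long non-coding RNA that binds Pumilio proteins, and Bscl2, had 269, 274 and 284 FPKM in Tip60 cKO and 245, 274 and 286 FPKM in Control (log2 change 0.03 ± 0.04, limma adjusted p = 0.576). Hypk (2310003F16Rik), a partner of the N-terminal acetyltransferase NatA, had 58.2, 60.8 and 66.2 FPKM in Tip60 cKO and 52.99, 58.9 and 60.6 FPKM in Control (log2 change 0.08 ± 0.04, limma adjusted p = 0.12). Mien1 (1810046J19Rik) had 59.0, 63.0 and 69.7 FPKM in Tip60 cKO and 52.4, 56.3 and 57.9 FPKM in Control, without overlap but within 1.2-fold (log2 change 0.19 ± 0.05, limma adjusted p = 0.00213).

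Position was read from GENCODE M21 for 135 members. Exons of 33 overlapped another gene, 32 of them on the opposite strand. Of the 33, 9 were higher and 2 lower, beside 19.8% and 6.51% of all tested genes. Among the 102 members without such an overlap in GENCODE M21 22 were higher and 11 lower. Whether calls rest on reads shared with other genes was not tested. Besides Pigbos1, the called members described above with such an overlap were Ptrhd1 (Gm29696 on the same strand and Cenpo on the other), A130010J15Rik (1 gene on each strand), Tmem258 (Fen1), Rab5if (Sla2), Tstd3 (Ccnc and Usp45) and Borcs6 (9330160F10Rik). Uncalled ones included Hypk (Serf2 on the same strand and Serinc4 on the other) and Mien1 (Erbb2 and Gm12352). Where no strand is given the overlap is antisense, and reads of these genes cannot be told apart from those of their neighbours. Another gene started within 1 kb on the other strand of 30 members. Of these 10 (33.3%) were higher and 3 (10%) lower, beside 19.8% and 6.51% of all tested genes. Their difference from the other members was not tested. Only 7 neighbour pairs had both genes tested. Beside Pik3r2 these included Zfp593, antisense to E130218I03Rik, with 2.86 ± 0.297 FPKM in Tip60 cKO and 2.22 ± 0.246 FPKM in Control (SD, n = 6 each, log2 change 0.26, limma adjusted p = 0.00284), while E130218I03Rik had a log2 change of 0.18 (limma adjusted p = 0.0363). Neither was called.

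Other kinds of provisional symbols were counted in the same fit for comparison. Of 84 tested genes named Gm with a number, the symbols of predicted genes, 7 were higher and 7 lower in Tip60 cKO with a median log2 change of 0.05. Of 21 genes named by a sequence accession 3 were higher and 1 lower. The other 2117 symbols had 427 higher and 136 lower genes, 20.2% and 6.42%. Outside the members 1863 tested genes averaged 1 FPKM or more, and of these 20.1% (375) were higher and 7.35% (137) lower. By level 7 of 25 members between 1 and 2 FPKM, 14 of 63 between 2 and 10 FPKM and 10 of 50 above that were higher, and 2, 6 and 5 were lower.

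Ecrg4 and Atad3aos each had 1 library far from the rest, and they were not the only such members. In Control replicate 3, 4930470H14Rik had 36.9 FPKM and A130077B15Rik 73.0 FPKM. The other Control libraries had 16.3 to 19.6 FPKM and 38.9 to 44.2 FPKM, and neither gene was called. Both genes were also highest in replicate 3 among the Tip60 cKO libraries, at 32.2 and 63.4 FPKM. The other Tip60 cKO libraries had 20.2 to 25.8 FPKM and 44.1 to 57.5 FPKM. Ecrg4 (1500015O10Rik), the precursor of a secreted peptide that choroid plexus also makes, had 3.73 FPKM in Tip60 cKO replicate 1 and 0.374 to 1.28 FPKM in the other 11 libraries. The same library had 201.3 FPKM of Ttr, the main choroid plexus marker, where no other library exceeded 0.911 FPKM, and choroid plexus markers (2 of 5 in the table) summed to 0.311 to 202 FPKM in Tip60 cKO and 0.303 to 0.751 FPKM in Control. Ecrg4 was not called (log2 change 0.30 ± 0.25, limma adjusted p = 0.332). Without that library 29 members were higher and 13 lower. Atad3aos (2610204G22Rik) had 3.51 FPKM in Tip60 cKO replicate 2 against 1.10 to 1.34 FPKM in the other Tip60 cKO libraries and 0.704 to 1.11 FPKM in Control, and was not called at 0.40 ± 0.16 (limma adjusted p = 0.0525).

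The 6 genes set aside for an exact 0 are described without a fold, since a 0 in a table of estimated values can be a failed estimate. Ten1 (2310004N24Rik), a subunit of the CST complex of telomeres, was listed at 0 in all 6 Control libraries and in 2 Tip60 cKO libraries and had 25.4 to 26.6 FPKM in the other 4. 1700123O20Rik, a coding gene whose exons overlap Acin1 on the opposite strand, showed the same form, listed at 0 in all 6 Control libraries and 1 Tip60 cKO library with 8.51 to 10.96 FPKM in the other 5. Values switched between 0 and a narrow band in both genes, with nothing between. 2810002D19Rik was listed at 0 in 2 Tip60 cKO and 3 Control libraries, and Fam120aos (C030044B11Rik) in 1 of each. Mrnip (3010026O09Rik), a factor of DNA break repair, and 1600012H06Rik were listed at 0 in 1 Tip60 cKO library each and otherwise had 4.24 to 6.41 FPKM and 3.92 to 5.90 FPKM over both genotypes.

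**Figure D5:**
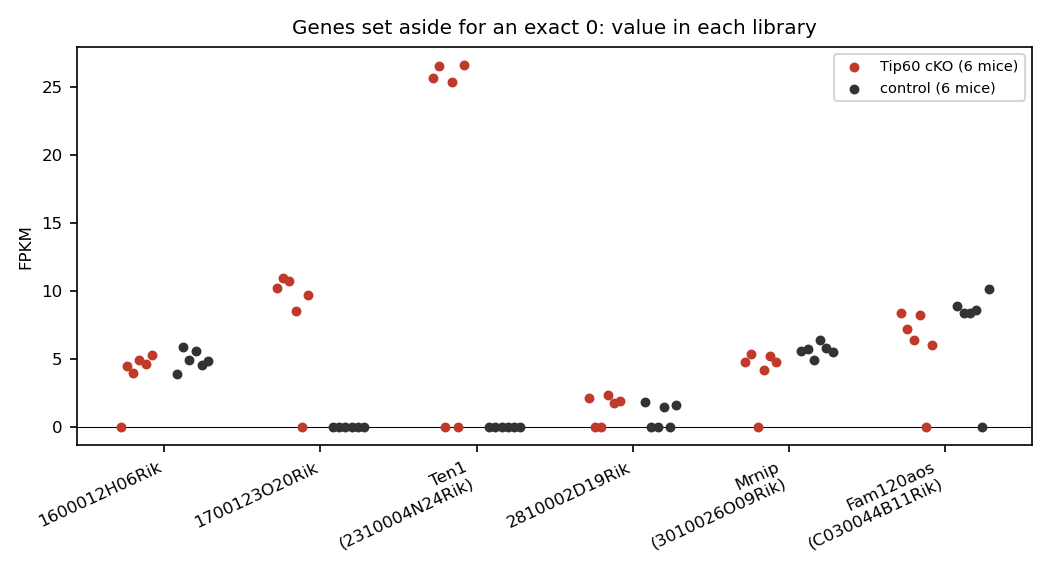
FPKM of the 6 genes set aside for an exact 0 in each of 6 Tip60 cKO libraries (red, left) and 6 Control libraries (black, right). Ten1 and 1700123O20Rik are listed at 0 in all 6 Control libraries and, in Tip60 cKO, either at 0 or within 25.4 to 26.6 FPKM and 8.51 to 10.96 FPKM.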

How the data were processed

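RNA-Seq libraries of dorsal CA1 were compared between 6 Tip60 cKO and 6 Control mice, 1 mouse per library and n = 6 each. The authors deposited 1 value per gene row and library, read here as FPKM. No source names the unit; it follows from the values, since in every library the product of value and transcript length had a pile-up at 1 read. Per the submitters' processing notes CASAVA 1.8.2, FastQC 0.10.0, TopHat2 2.0.8, bedtools 2.16.2 and the mm9 build were used. How alignments became FPKM, and whether libraries kept strand, is stated in no source used here.

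Of 10383 rows 100 exact repeats were dropped, and rows of 1 symbol were summed, which concerned 3 RIKEN symbols. Small RNA genes (529), genes without any signal (2414) and genes with isolated 0 values (49) were set aside. Of the 7253 kept, the 2412 that averaged 0.5 FPKM or more were tested, because FPKM do not allow the count test of the study. limma 3.58.1 in R 4.3.3 was fitted to log2(FPKM + 1) without covariates, with robust variances, a prior that follows the mean and Benjamini-Hochberg adjustment over all 2412 genes. Depth was estimated from 1776 genes with the level of 1 read. Between any 2 libraries no more than 0.041% of values were identical. On simulated data 200 of 2412 genes were changed, 50 by each fold. An adjusted p below 0.05 was reached by 86% of those changed 1.2-fold, 98% changed 1.5-fold and 100% changed 2-fold or 3-fold. Of all genes that reached it 4% were unchanged. The fold limit of a call was not applied, so these shares do not describe calls. The p-values measure the spread between these mice.

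Members were matched to names and gene types in RefSeq (GRCm38.p6), to positions in GENCODE M21, and to promoters in RefSeq. Role groups follow what is known of 54 current names. Genes named are the 12 largest rises and 12 largest falls among called members without overlap of the groups, the 5 members of highest mean, the 3 on each side of the 1 FPKM limit, the genes set aside, and up to 3 called members per role group and direction. Others are named outside that rule. The members and all lists were chosen with earlier results of these data known. Alternatives changed the pseudocount, the filter, the scaling, the variance model, the handling of repeated symbols and of exact 0 values, the limit of membership, and left out each library in turn. Counting those without exon overlap or with both group means at least 1 FPKM was added after seeing the data. Proteins of members without a functional name were planned but not printed.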

Additional observations from a re-analysis of the deposited data

Results flagged for a closer look

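Among 66 groups of 6 libraries, 1 per named member and genotype, 5 held a library whose distance from its nearest neighbour was too large a part of the range of the group by Dixon's criterion, where chance gives about 1 in 20 groups. Tmem242 (5730437N04Rik) had 49.6 FPKM in Tip60 cKO replicate 2 and 32.6 to 37.1 FPKM in the other Tip60 cKO libraries. Ptrhd1 (2410017P09Rik) had 3.12 FPKM in Tip60 cKO replicate 6 and 4.24 to 4.63 FPKM in the others. Dipk2a (1190002N15Rik) had 14.2 FPKM in Control replicate 2 and 10.9 to 12.1 FPKM in the other Control libraries. Control replicate 3 stood apart in a pair of members that were lower in Tip60 cKO, with 12.8 FPKM of 2610301B20Rik where the other Control libraries had 14.95 to 15.98 FPKM, and with 79.3 FPKM of 6330403K07Rik where they had 87.2 to 91.5 FPKM. Control replicate 3 also had the lowest scaling factors, 0.912 by median ratio where the other Control libraries had 0.943 to 0.982, and 0.910 by upper quartile where they had 0.970 to 0.996. Tip60 cKO replicate 3 had the lowest factors of its group, 0.9863 by median ratio and 0.9835 by upper quartile. The part of the scale of Control replicate 3 in these deviations was not tested. All 5 members kept their calls when any library was left out.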

How the results depend on the processing

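Among the 30 called members chosen by the naming rule, 25 kept their call under every alternative that tested them. The others were Bmt2, Smg8, Rab5if, Tmem258 and Arhgef18, whose values are given with them above. Of the called members named outside that rule, A130010J15Rik and D930048N14Rik lost their calls as given above. Median-ratio scaling gave 16 higher and 19 lower members with a median log2 change of -0.0055, and 282 higher and 279 lower genes among all tested. Upper-quartile scaling gave 19 higher and 16 lower members with a median of 0.0302. The median-ratio factors were 0.986 to 1.07 in Tip60 cKO and 0.912 to 0.982 in Control libraries, and a change common to most genes cannot be told apart from one of the deposited scale. A pseudocount of 0.1 gave 38 higher and 14 lower members and a median of 0.11. Hypk turned to -0.0388 under median-ratio scaling. 2900097C17Rik turned to -0.0949 under median-ratio scaling, to -0.0495 under upper-quartile scaling and, over the fits that left out 1 library, ran from -0.0036 (without Control replicate 3) to 0.0409. None of these was a call.

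Leaving out each library gave 29 to 33 higher and 12 to 13 lower members, medians of 0.09 to 0.11, and 457 to 508 higher and 153 to 178 lower genes among all tested. A limit of 0.5 FPKM gave 182 members with 37 higher and 13 lower, and a limit of 2 FPKM gave 113 with 24 and 11. Keeping genes with an exact 0 gave 33 higher and 13 lower. Without exon overlap 22 were higher and 11 lower, and with both group means at least 1 FPKM 28 and 13. Calls that held under every alternative other than a filter at 2 FPKM, which tests fewer members, numbered 16 higher and 12 lower. Members near 1 FPKM are measured from few reads. No paired analysis was made, because the labels give no replicate numbers shared by the genotypes. Replicates are numbered here by sample order. Some members were alike in libraries of the same number. Pianp was lowest in replicates 1 and 4 of both genotypes. 1700058G18Rik was highest in replicate 2 of both, at 24.0 FPKM in Tip60 cKO and 21.3 FPKM in Control. Tmem242 was high in replicate 2 of Tip60 cKO alone. These were picked by their values, and whether same-numbered libraries share a structure was not tested.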

Other observations

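With the limit of membership left out, 184 RIKEN symbols were in the fit. A higher call went to 38 (20.65%) and a lower call to 13 (7.065%). Both shares are near those over all tested genes, 19.8% and 6.51%. The RIKEN symbol 1110019D14Rik, below a mean of 1 FPKM, starts within 1 kb of the member 2610001J05Rik on the other strand. 1110019D14Rik had 0.934 ± 0.192 FPKM in Tip60 cKO and 0.603 ± 0.0716 FPKM in Control (SD, n = 6 each, log2 change 0.27 ± 0.06, limma adjusted p = 0.00257) and was called, while 2610001J05Rik had a log2 change of 0.22 ± 0.05 (limma adjusted p = 0.000867) within 1.2-fold. The difference between the pair was not tested. Small nucleolar RNA genes lie inside 2 members, 2410006H16Rik (log2 change 0.10 ± 0.08, limma adjusted p = 0.291) and Rab26os (2610019E17Rik, 0.18 ± 0.14, limma adjusted p = 0.314), and neither was called.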
